A study of Rattus norvegicus with 10 samples.

Results

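The vascular endothelial growth factor (VEGF) genes were followed in rat mammary tumors before and after adriamycin. The set held 10 genes. They were the ligands Vegfa, Vegfb, Vegfc and Pgf, the receptors Flt1, Kdr and Flt4, the coreceptors Nrp1 and Nrp2, and Ccbe1. All probe sets annotated with 1 of these symbols alone were taken, which gave 17 of the 31099 on the array. Ccbe1 was selected on its measured change, a lower level after treatment in all 5 tumors, so that change is given as a description with no test. The other 9 genes were chosen by their place in the family, although earlier results for Vegfa were known.

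The final group held 5 samples from tumors of female Sprague-Dawley rats at 19 weeks of age, after 6 weeks of adriamycin, an anthracycline also called doxorubicin, given weekly into the tail vein at 1 mg/kg. The basal group held the 5 untreated needle biopsies of the same tumors, taken at 12 weeks. Every tumor in both groups had been induced by 1 oral dose of DMBA (100 mg/kg), a carcinogen that gives rise to hormone-dependent mammary tumors, and all were chosen for the same histological grade. Age, treatment and possibly the type of sample differ together between the groups, since the labels describe the final material as whole tumors and the design text as needle samples. The codes that end the sample titles run separately within the groups. What they stand for is not given, so any processing order they follow cannot be told apart from treatment. Whether the 5 tumors came from 5 rats is not given in the sources used here. The p-values rest on the spread of the changes between tumors, and those from limma also on the variance of other probe sets. They treat the 5 tumors as independent.

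VEGF-A is the main growth factor for blood vessels and is induced by low oxygen. It signals in endothelial cells mostly through the receptor encoded by Kdr, while the product of Flt1 binds it more tightly and can act as a decoy. VEGF-C acts through Flt4 on lymphatic vessels. It is made as a precursor, and the secreted protein encoded by Ccbe1 assists the protease that activates it.

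Levels are log2 intensities, so a difference of 1 unit is a doubling. The upper quartile of an array lay at 8.03 to 8.18, and the lower quartile at about 4. The luminal epithelium markers were bright, with all 9 tested genes above the upper quartile of every array. Of the 19 tested endothelial markers, 13 lay above the median of every array and 0 above the upper quartile. The array of the final 09I1 sample was unlike the rest. Over all probe sets its correlation with the remaining arrays had a median of 0.938, and the other 9 arrays had medians of 0.975 to 0.984. Its beta-actin control showed a 3' minus 5' difference of 2.61, against 0.72 to 0.96. Where leaving out 09I1 moved the mean of a gene or the median of a list described here by over 1.5 times, the value without it is given. In bulk tissue, fewer cells of a type and less RNA per cell cannot be told apart.

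The sequences before the transcription starts of Vegfa, Pgf and Kdr are shown because these genes, a pair of ligands and the main receptor, took different courses in the same tumors. They come from RefSeq on the GRCr8 build, 5′ to 3′ on the strand of the gene, and stop at the annotated gene start. Capitals mark the core of the hypoxia response element (5 letters, ACGTG or GCGTG on either strand) and the GC box bound by Sp1 (6 letters, GGGCGG on either strand).
Vegfa, chr9:22452604-22452853, plus strand: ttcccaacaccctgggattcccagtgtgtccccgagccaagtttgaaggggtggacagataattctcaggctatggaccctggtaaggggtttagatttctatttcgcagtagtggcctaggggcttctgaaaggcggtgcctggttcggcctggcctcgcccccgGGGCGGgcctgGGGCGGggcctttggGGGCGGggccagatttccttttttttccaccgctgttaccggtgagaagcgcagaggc
Pgf, chr6:110557748-110557997, minus strand: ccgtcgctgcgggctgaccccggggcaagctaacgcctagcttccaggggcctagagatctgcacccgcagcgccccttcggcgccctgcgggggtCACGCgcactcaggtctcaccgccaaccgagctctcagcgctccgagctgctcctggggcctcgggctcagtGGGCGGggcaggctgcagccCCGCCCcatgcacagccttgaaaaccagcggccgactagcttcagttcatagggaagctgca
Kdr, chr14:32571813-32572030, plus strand: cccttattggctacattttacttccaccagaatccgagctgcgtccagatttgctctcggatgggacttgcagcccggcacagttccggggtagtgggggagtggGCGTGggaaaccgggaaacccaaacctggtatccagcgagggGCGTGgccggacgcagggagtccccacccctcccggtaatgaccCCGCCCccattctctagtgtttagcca
The Vegfa window of 250 bases held 3 GC boxes and 0 hypoxia cores. The Pgf window of 250 bases held 2 GC boxes and 1 hypoxia core, and the Kdr window of 218 bases held 1 GC box and 2 hypoxia cores. No letters were shared between the motifs. Of 33469 RefSeq windows of 250 bases, 36.7% held a hypoxia core and 30.5% a GC box, and over 218 bases the shares were 32.9% and 27%. A second RefSeq window for Vegfa (chr9:22460028-22460277), not at the gene start, held 0 of either motif and is not shown. These matches describe the letters in the windows only, and sequence further upstream was not searched.

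Vegfa was lower in the final sample of every tumor on its brighter probe set (1373807_at). That probe set read 8.77, 8.14, 8.65, 8.98 and 8.03 in the final samples of 09I1, 11D2, 12I1, 29I1 and 43D1. In the basal samples of the same tumors it read 9.57, 8.71, 10.48, 9.43 and 8.13. The groups overlapped, because the basal levels of 11D2 and 43D1 lay within the final range. The mean was 8.51 ± 0.41 in final and 9.26 ± 0.89 in basal samples (SD, n = 5 each), a log2 change of -0.75 ± 0.25 (SE), or 0.596-fold. The change ran from -1.82 in 12I1 to -0.10 in 43D1. With limma's moderated test over all 23281 tested probe sets, the adjusted p was 0.977, so Vegfa did not pass the threshold of 0.05. The mean change was -0.48 without 12I1, and -0.74 without 09I1.

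The second Vegfa probe set (1370081_a_at) gave changes of -1.31, -0.21, -1.53, -0.42 and 0.47 in 09I1, 11D2, 12I1, 29I1 and 43D1. It was thus lower in 4 of 5 tumors, with a mean of -0.60 ± 0.31 (SE, limma adjusted p = 0.977). Both probe sets placed the largest decrease in 12I1 and the next in 09I1, and they disagreed in sign in 43D1.

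Genes induced by hypoxia, as Vegfa is, were examined beside it. Of 22 tested hypoxia targets, 15 were lower and 7 higher on average, with a median change of -0.19, against 0.01 over all 12255 tested genes, and 0 passed the threshold. Without 12I1 the list median was -0.043. In 12I1, the tumor with the largest Vegfa change, 21 of the 22 were lower and their median change was -0.80. Of all 12255 tested genes, 5275 were lower in 12I1, with a median change of 0.05. In 43D1, where Vegfa changed least, the median of the hypoxia list was 0.23. The basal sample of 12I1 had both the highest Vegfa level and the highest level of the hypoxia list, whose median lay 0.83 above each gene's mean over the 10 arrays. Among the basal samples that of 43D1 was lowest in both, with -0.43 for the list.
Ero1a, an oxidase of the endoplasmic reticulum, had a change of -2.40 in 12I1 and a mean of -0.69. Ldha, lactate dehydrogenase A, had a mean change of -0.19, and Bnip3l, a mitophagy receptor, one of -0.26 (-0.16 without 09I1). Angptl4, a secreted inhibitor of lipoprotein lipase, went the other way with a mean of 0.53 and 1.85 in 11D2. None of these 4 passed the threshold. Of the 5 tested genes of oxygen sensing, 3 were lower, with a median of -0.04, and 0.025 without 09I1. Hif1a, the oxygen-regulated transcription factor subunit, had a mean change of -0.21, with -0.85 in 09I1 and -0.37 in 12I1, and -0.05 without 09I1. Vhl, which targets that factor for degradation, had one of -0.20, with -1.11 in 09I1 and 0.03 as the mean without it.

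Markers of blood cells differed in the same direction as Vegfa, and none of them passed the threshold. Of 6 tested red blood cell genes, 6 were lower on average (median change -0.90, and -0.52 without 12I1). Their list level ran from -0.89 to 0.09 in final and from -0.85 to 1.63 in basal samples (log2 units around each gene's mean). From the largest to the smallest, their median changes in 12I1, 11D2, 09I1, 29I1 and 43D1 were -2.45, -1.20, -0.89, -0.15 and -0.08. All 4 tested platelet genes were also lower on average (median change -0.79). The platelet list's level ran from -0.74 to 0.50 in final and from -0.45 to 0.98 in basal samples. Its change was largest in 12I1 (-1.47) and smallest in 43D1 (-0.03), as for Vegfa. The part of blood content in the Vegfa change was not tested.

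**Figure D1:**
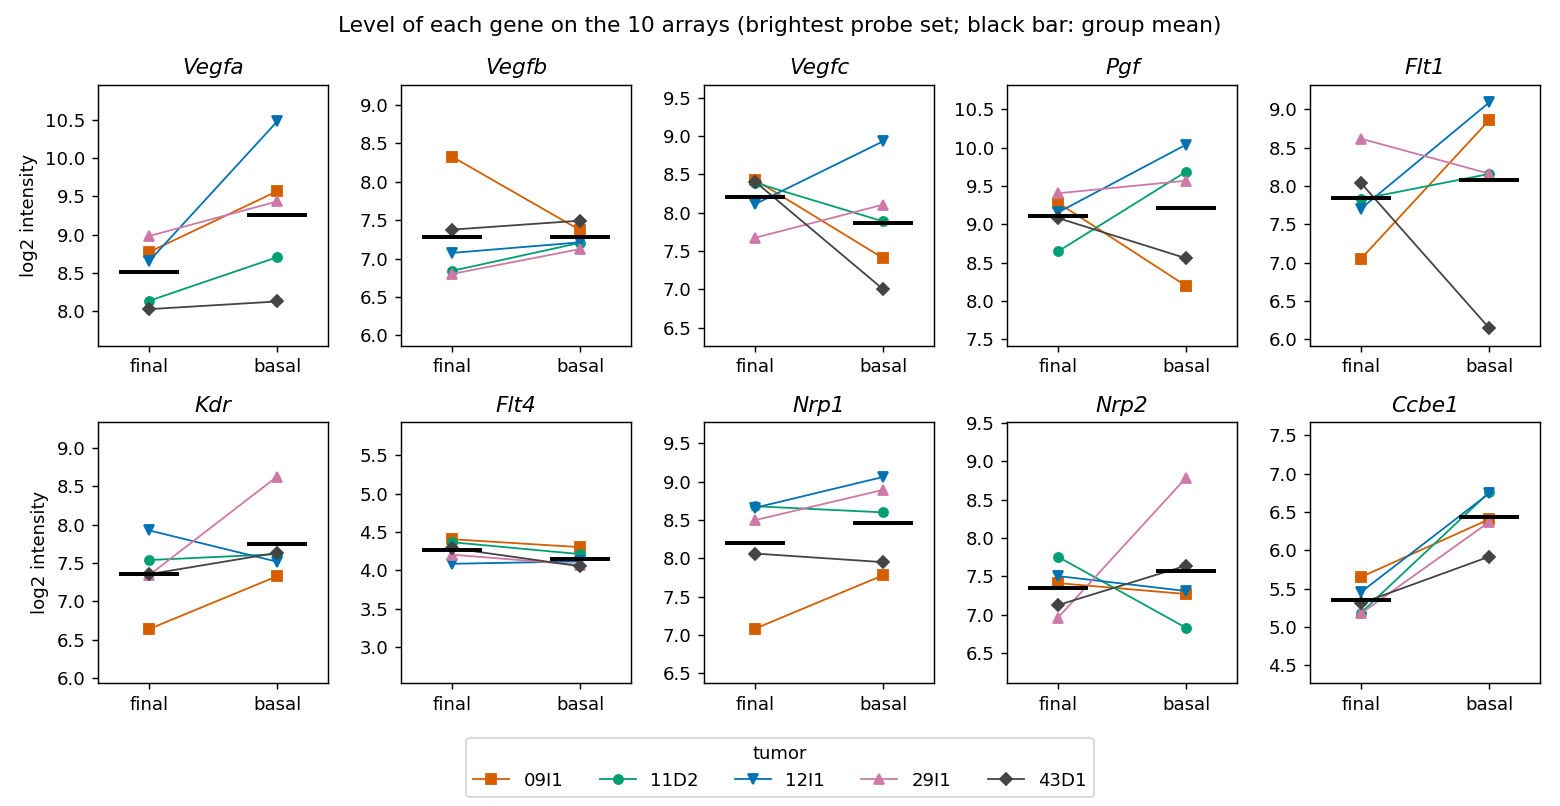
Levels of the 10 genes in log2 intensity, with final samples at the left and basal samples at the right of each panel, 1 line per tumor and a black bar at each group mean. All panels span the same number of log2 units. The brightest probe set of each gene is shown. Vegfa and Ccbe1 slope the same way in all 5 tumors, and in Ccbe1 alone the groups do not overlap.

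The other ligands changed in different directions in different tumors. Vegfc, the lymphatic ligand, had final levels of 8.43, 8.39, 8.11, 7.67 and 8.41 in 09I1, 11D2, 12I1, 29I1 and 43D1. Its basal levels in the same order were 7.41, 7.89, 8.93, 8.11 and 7.00. It was higher in 3 tumors and lower in 2, and the final samples lay inside the basal range. The mean change was 0.34 ± 0.34 (SE, limma adjusted p = 0.977). It was 0.16 without 09I1, 0.068 without 43D1 and 0.62 without 12I1.

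Pgf, which encodes placental growth factor and binds the Flt1 receptor, had final levels of 9.28, 8.65, 9.16, 9.40 and 9.08 in 09I1, 11D2, 12I1, 29I1 and 43D1 on its brighter probe set (1368919_at). Its basal levels in the same order were 8.20, 9.69, 10.04, 9.57 and 8.56. The final levels lay inside the basal range, and the mean change was -0.10 ± 0.33 (SE, limma adjusted p = 0.978). The second probe set (1368918_at) had a mean change of -0.33. The probe sets agreed in sign in 4 of 5 tumors and differed in 09I1, with changes of 1.08 and -0.68. Without 09I1 the means were -0.39 and -0.25.

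Vegfb, a ligand of Flt1 abundant in oxidative tissues, had a mean change of 0.00 ± 0.23 (SE, limma adjusted p = 1.00). That mean joined a change of 0.96 in 09I1 and changes of -0.37, -0.14, -0.32 and -0.12 in 11D2, 12I1, 29I1 and 43D1. The final array of 09I1 read 8.33, against 6.80 to 7.38 on the other 4 final arrays and 7.12 to 7.49 on the basal arrays. Without 09I1 the change was -0.24.

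Flt1, the decoy and signalling receptor of VEGF-A, VEGF-B and placental growth factor, had the widest spread of changes of the 10 genes. Its brightest probe set (1377113_at) read 7.05, 7.83, 7.70, 8.61 and 8.03 in the final samples of 09I1, 11D2, 12I1, 29I1 and 43D1. The basal levels in the same order were 8.86, 8.16, 9.09, 8.16 and 6.14. The changes therefore ran from -1.81 in 09I1 to 1.89 in 43D1, with a mean of -0.23 ± 0.51 (SE, limma adjusted p = 0.977). All 3 Flt1 probe sets were lower in 09I1, 11D2 and 12I1, and all 3 were higher in 43D1. There the changes were 1.89, 0.72 and 0.84. In 29I1 they were 0.45, -0.01 and -0.01. Without 09I1, the mean of the brightest probe set was 0.16.
In the basal samples, Flt1 and Vegfa were both highest in 12I1 and both lowest in 43D1. In the final samples, the brightest probe sets of both were highest in 29I1, while Flt1 was lowest in 09I1 and Vegfa in 43D1. On the second Vegfa probe set the highest final level was 7.59 in 12I1 and the lowest 6.43 in 09I1.

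Kdr, the main signalling receptor for VEGF-A, had its largest change in another tumor than Vegfa. Its probe set 1367948_a_at read 6.64, 7.54, 7.93, 7.34 and 7.36 in the final samples of 09I1, 11D2, 12I1, 29I1 and 43D1. The basal levels in the same order were 7.33, 7.62, 7.52, 8.63 and 7.63. The basal sample of 29I1 was the high one, and the other 4 basal samples lay between 7.33 and 7.63. The mean change was -0.38 ± 0.25 (SE, limma adjusted p = 0.977). It was -1.29 in 29I1 and 0.41 in 12I1, the tumor with the largest Vegfa decrease. Without 29I1 the mean was -0.16, and without 12I1 it was -0.58. A second Kdr probe set (1397868_at) lay below the lower quartile of all 10 arrays and was not tested; its changes ran from -0.10 to 0.25.

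Nrp2, a coreceptor for VEGF-C and class 3 semaphorins, resembled Kdr in 29I1. Its brighter probe set (1382995_at) read 7.41, 7.75, 7.50, 6.96 and 7.13 in the final samples of 09I1, 11D2, 12I1, 29I1 and 43D1. The basal levels in the same order were 7.27, 6.83, 7.31, 8.79 and 7.64. As for Kdr, the basal sample of 29I1 was the high one, and the change there was -1.82. In 09I1, 11D2, 12I1 and 43D1 the changes were 0.14, 0.93, 0.20 and -0.51. The mean was -0.21 ± 0.37 (SE, limma adjusted p = 0.977), and 0.19 without 29I1. The second Nrp2 probe set was dim, below the lower quartile of 9 of 10 arrays, and was not tested; its changes ran from -0.26 to 0.28.

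Endothelial markers were lower in 29I1 too. Of 19 tested endothelial genes, 18 were lower in that tumor, with a median change of -0.67, while the medians in the other 4 tumors lay between 0.13 and 0.44. Of all 12255 tested genes, 6651 were lower in 29I1, with a median change of -0.04. Over all tumors 14 of the 19 endothelial genes were higher, against 6462 of all 12255. The endothelial median was 0.10, and 0 of the 19 passed the threshold. That median was 0.024 without 09I1, and over the omission of each tumor it ran from -0.024 (without 11D2) to 0.26 (without 29I1). The list's level ran from -0.17 to 0.18 in final samples and from -0.25 to 0.49 in basal samples, the highest value being the basal sample of 29I1. Pecam1, an endothelial adhesion molecule, had a mean change of 0.35 and -0.17 in 29I1. Aplnr, the apelin receptor, had one of -0.52. Fibroblast markers were also lower in 29I1, in 11 of 11 genes with a median of -1.68, as were 10 of 11 macrophage genes. The macrophage decrease was not particular to 29I1. In 12I1, 11 of 11 macrophage genes were lower with a median of -0.82, while Kdr changed by 0.41 and Nrp2 by 0.20. The macrophage medians were 0.84 in 11D2, 1.20 in 43D1 and -0.25 in 09I1. The part of these cell contents in the Kdr and Nrp2 changes was not tested.

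Nrp1, the coreceptor that binds VEGF-A with Kdr, differed little between the groups. On its brighter probe set (1373577_at) the final mean was 8.20 ± 0.67 and the basal mean 8.46 ± 0.57 (SD, n = 5 each). The change was -0.26 ± 0.17 (SE, limma adjusted p = 0.977), with a range from -0.70 in 09I1 to 0.11 in 43D1, and the mean was -0.15 without 09I1. The second probe set (1370570_at) had a change of -0.20 and the same sign as the first in all 5 tumors. Flt4, the receptor for VEGF-C, was below the median of all 10 arrays. Its level was 4.27 ± 0.13 in final and 4.15 ± 0.10 in basal samples (SD, n = 5 each), a change of 0.12 ± 0.09 (SE, limma adjusted p = 0.977). Over all 10 arrays Flt4 spanned 0.35 log2 units.

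**Figure D2:**
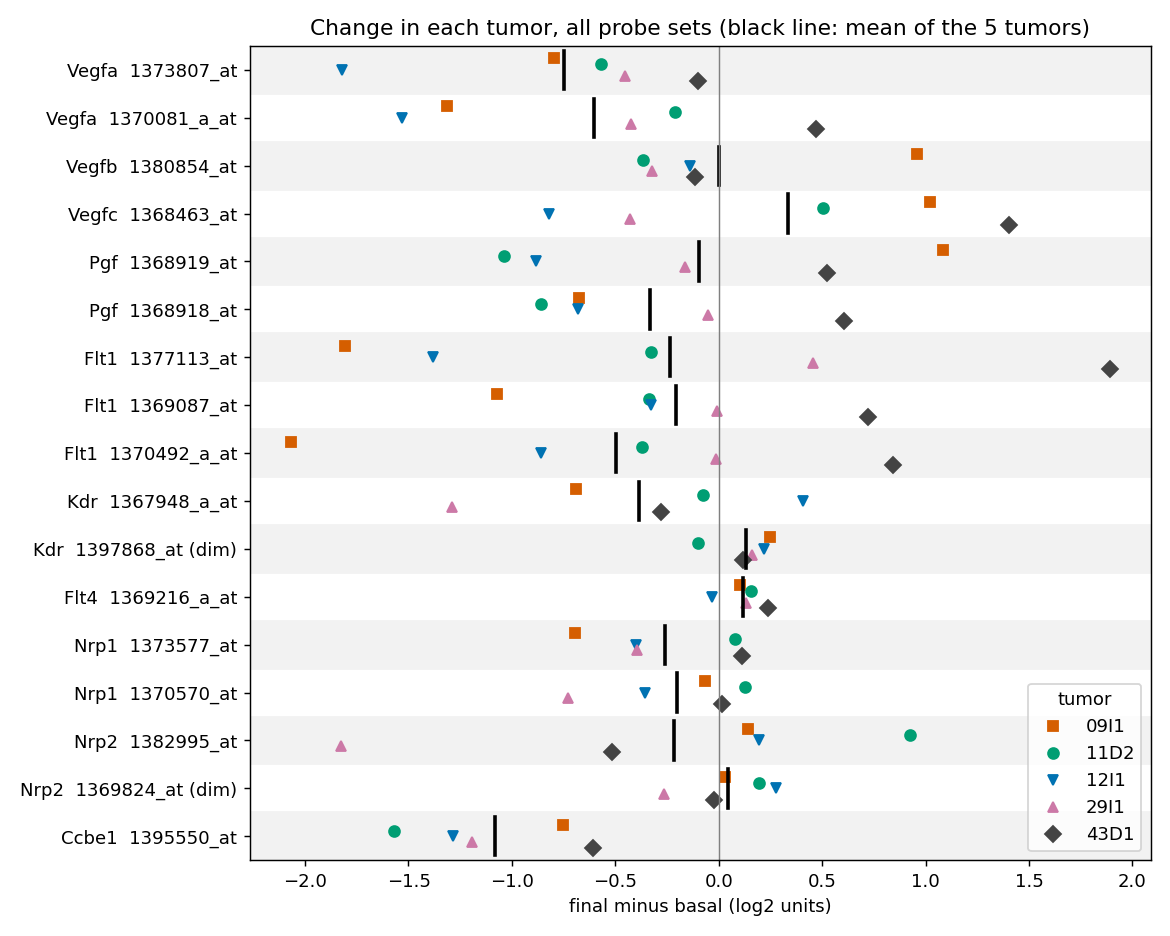
Final minus basal in log2 units for all 17 probe sets, 1 symbol per tumor and a black line at the mean of the 5 tumors; "dim" marks the 2 probe sets that were not tested. The changes of the brighter Vegfa probe set and of Ccbe1 lie below 0 in all 5 tumors. Those of every other probe set lie on both sides of it.

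Ccbe1, the cofactor of VEGF-C activation, was measured by 1 probe set (1395550_at). Its final levels were 5.65, 5.19, 5.46, 5.18 and 5.31 in 09I1, 11D2, 12I1, 29I1 and 43D1. Its basal levels in the same order were 6.41, 6.76, 6.75, 6.37 and 5.92. Every final level lay below every basal level, which holds for the final and basal arrays of 0.84% of all tested genes in either direction. Since the gene was picked for being lower in all 5 tumors, nothing is read from this. The mean was 5.36 ± 0.20 in final and 6.44 ± 0.34 in basal samples (SD, n = 5 each), a change of -1.08, or 0.472-fold. The final levels all lay below the array median and above the lower quartile. By tumor, the change was largest in 11D2 (-1.57), followed by 12I1 (-1.29), 29I1 (-1.19), 09I1 (-0.75) and 43D1 (-0.61), and the mean was -1.16 without 09I1.

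Blood cell markers had a median change below 0 in all 5 tumors, for both the red blood cell and the platelet list. In 43D1, however, these medians were -0.08 and -0.03, with 3 of 6 red blood cell genes and 2 of 4 platelet genes lower. In 29I1, 3 of the 6 red blood cell genes were lower. Clec1b, a receptor of platelets, had a change of -1.42 and was lower in all 5 tumors (limma adjusted p = 0.850). It was dim, below the median of all 10 arrays and below the lower quartile of 5. Gp9, another platelet gene, had a change of -0.07 (-0.18 without 09I1) and was lower in 3 of 5 tumors. The part of blood content in the Ccbe1 change was not tested.

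The lymphatic genes moved in both directions. Of 10 tested lymphatic endothelial genes, 5 were higher and 5 lower, with a median change of 0.02 (-0.0052 without 09I1) and a range from -0.74 to 0.84, and 0 passed the threshold. The gene with the smallest p was Itga9, an integrin subunit needed for lymphatic valves. Its final levels were 4.38, 4.86, 4.74, 4.72 and 4.46 in 09I1, 11D2, 12I1, 29I1 and 43D1. Its basal levels in the same order were 4.67, 5.75, 6.06, 5.57 and 4.80. It was lower in all 5 tumors, with a change of -0.74 ± 0.18 (SE, limma adjusted p = 0.859). The groups overlapped, since the basal levels of 09I1 and 43D1 lay within the final range. Prox1, the master regulator of lymphatic identity, had a change of 0.30, higher in 3 of 5 tumors. Reln, a secreted glycoprotein that lymphatic vessels express, had one of -0.19. It lay above the upper quartile of all 10 arrays, and which cells gave that level was not tested. Foxc2, a regulator of lymphatic valves, had a change of 0.13 (0.028 without 09I1).
Of the proteases and related ligand listed for VEGF-C processing, 3 genes were tested. Furin and Pcsk5, proprotein convertases, had changes of 0.06 and 0.09, and Pcsk7 one of -0.22. Without 09I1, Furin had 0.20, Pcsk5 0.032 and Pcsk7 -0.067. Vegfd, the other lymphatic ligand, was too dim to be tested, and Adamts3, the protease that the Ccbe1 product assists, was not analysed here.

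**Figure D3:**
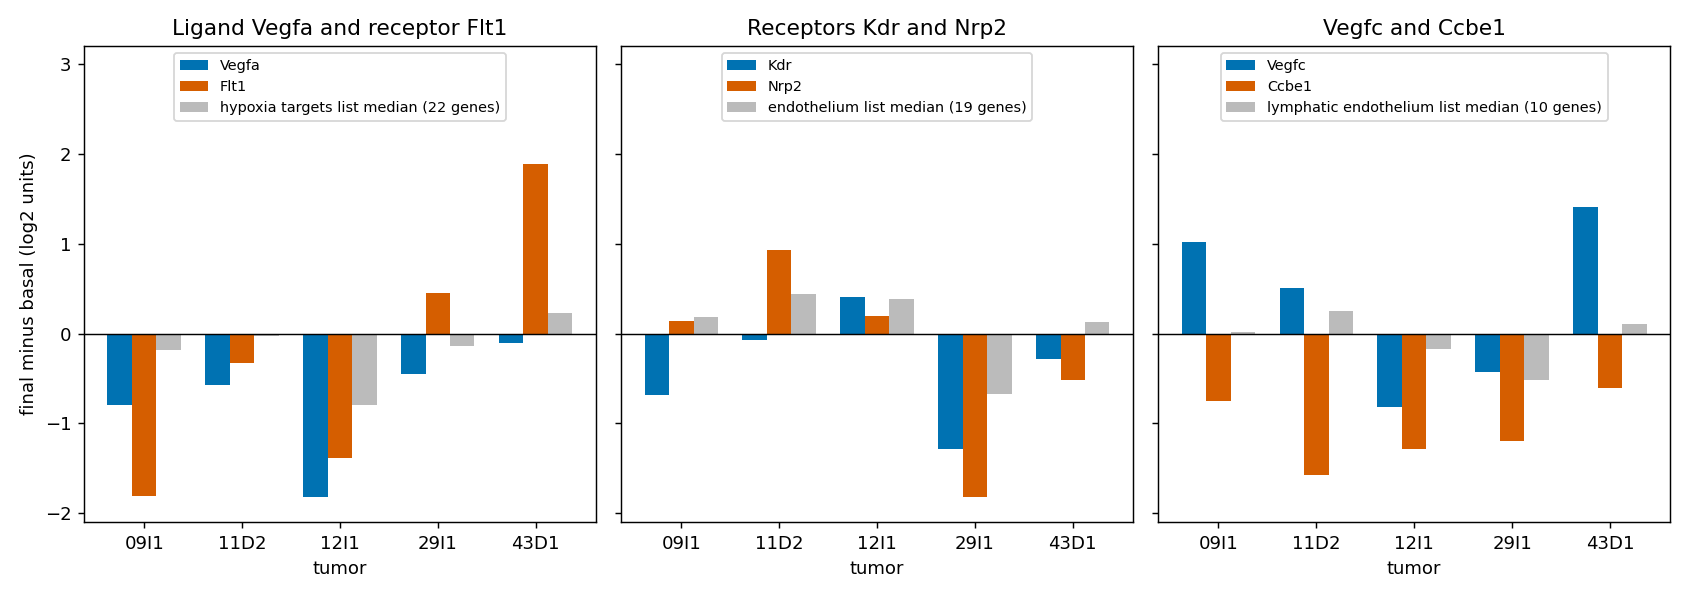
Final minus basal in log2 units by tumor for 3 pairs of genes (coloured bars), each beside the median of a gene list (grey bars). The hypoxia list is lowest in 12I1 (-0.80) with Vegfa (-1.82), and the endothelium list is lowest in 29I1 (-0.67) with Kdr (-1.29) and Nrp2 (-1.82). The lymphatic list lies between -0.51 in 29I1 and 0.25 in 11D2.

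Over the family, 14 probe sets of the 9 genes other than Ccbe1 were tested. With limma, 0 passed an adjusted p of 0.05, as did 0% of all probe sets, and 1 had an unadjusted p under 0.05, against 4.02% of all probe sets. With the methods' paired t-test 0 of the 14 had an unadjusted p under 0.05. The 1 probe set was the brighter one of Vegfa, with an unadjusted p of 0.0192 from limma. Of the 9 genes, 6 were lower on average, with a median of -0.21, where 47.3% of all tested genes were lower. By brightest probe sets, Vegfa was the 1 gene of the 9 lower in all 5 tumors, which 2.51% of all genes were. Its second probe set was lower in 4 of 5. On the brightest probe set of each gene, the spread between tumors was smaller in the final than in the basal samples for 7 of the 10 genes, and for 39.1% of all genes. For Pgf the SD was 0.29 in final and 0.79 in basal samples, but on its second probe set both were 0.75. The other Flt1 probe sets had the larger SD in final samples, with 0.48 against 0.35 (1369087_at) and 0.87 against 0.76 (1370492_a_at). For Vegfb the SD was 0.63 in final and 0.15 in basal samples.

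Lists of genes around the family had median changes between -0.21 and 0.02, against 0.01 over all genes, and none of their members passed the threshold. Of 13 semaphorins, plexins and adaptors that work with the neuropilins, 10 were lower, with a median of -0.14, and -0.033 without 09I1. Sema3g, an endothelial semaphorin, had a change of -0.70 and was lower in 4 of 5 tumors. Of 16 genes of VEGF receptor signalling, 9 were lower, with a median of -0.12, and -0.014 without 09I1. Prkca, a protein kinase C isoform, was lower in all 5 tumors, with a change of -0.35. Of 13 genes that VEGF induces in endothelial cells, 8 were lower, with a median of -0.11, and 0.035 without 12I1. Nr4a1, an immediate early nuclear receptor, was lower in all 5 tumors, with a change of -0.67 on average and -1.75 in 43D1. Apln, the tip cell ligand of the apelin receptor, had a change of -0.47.
Angpt2, which loosens vessels through the Tie2 receptor, had a change of 0.38, and 4 of 7 tested angiopoietin and Notch ligand genes were higher, with a median of 0.02 (0.15 without 09I1 and -0.16 without 29I1). Of 7 tested angiogenesis inhibitors, 6 were lower, with a median of -0.21, and -0.12 without 09I1. Sparc, a matrix protein that binds VEGF-A, had a change of -0.88, with -2.80 in 09I1 and -0.40 as the mean without that tumor, and Thbs2, a thrombospondin, had one of 0.54. Of 8 pericyte genes 4 were higher, and their median was -0.02, and 0.0087 without 09I1.

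Likeness between genes was measured over the 10 arrays as the lower of Pearson's r with all arrays and r without the final array of 09I1. It is a description, since the arrays are pairs from 5 tumors. The genes most like Vegfa were Kdelr1 (0.93), a receptor that returns proteins to the endoplasmic reticulum, and Gys1 (0.92), glycogen synthase. They were followed by Plin3 (0.89), a lipid droplet protein, Pygl (0.89), glycogen phosphorylase, and Bnc1 (0.87), a zinc finger protein. Bnc1 was dim, with a mean level of 4.15. Within the family, Vegfa was most like Flt1 (0.69) and Ccbe1 (0.66), and its value with Kdr was 0.14. Among all tested genes, 128 were more like Vegfa than Flt1 was, and 160 more than Ccbe1 was. The genes most like Kdr were Arhgap17 (0.88), Adgrl4 (0.87), an endothelial adhesion receptor, Colgalt1 (0.87), Itsn2 (0.86) and Flii (0.85). Within the family, Kdr was most like Nrp2 (0.68), but 164 tested genes were more like Kdr than Nrp2 was. Over all 10 arrays alone, r with Kdr was 0.72 for Nrp1 and 0.68 for Nrp2. The genes most like Ccbe1 were Npy (0.91), Cul3 (0.87), Clec1b (0.86), Cdc25b (0.86) and Snx24 (0.85). The contrast between final and basal samples, by which Ccbe1 was picked, is part of these values.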

How the data were processed

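Expression was measured on 10 Affymetrix Rat Genome 230 2.0 arrays. Per the labels, the authors normalized intensities by robust multichip average, and the deposited table holds log2 values. It still held 57 control probe sets, so the filter on background signal that the design text names is not part of it. Precision is limited by the number of arrays, and no detection calls were used. After the controls were removed, the 25% of probe sets with the lowest mean were dropped, and 23281 were tested. The difference between final and basal samples was estimated by limma 3.58.1 (R 4.3.3), blocking on the tumor and letting the variance follow intensity, with Benjamini-Hochberg adjustment over every tested probe set. The fit was tested on simulated data. Where a gene had several tested probe sets, the brightest stood for it (12255 genes).

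Probe sets were named from GEO's platform annotation. Of the 31099, 20826 carried 1 symbol and 436 several, and the 10 genes described matched RefSeq by Entrez identifier. The members and the 18 gene lists were chosen with earlier results of these data known, so list counts support nothing by themselves. Named from each list were up to 4 tested genes with the smallest p, and for Vegfa, Kdr and Ccbe1 the 5 genes most alike. RefSeq promoter windows matched 9 of the 10 genes; Ccbe1 is named only.

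The pairing comes from the tumor codes in the labels. Deviations from the group means correlated within a tumor, across probe sets, at 0.072, 0.095, 0.014, -0.15 and 0.22 for 09I1, 11D2, 12I1, 29I1 and 43D1. The alternatives tried were fits without the block or with it as random, filters at 0 and 50%, scaling by cyclic loess or array medians, weighting of arrays, a constant variance prior, the methods' paired t-test, averaging a gene's probe sets, and omission of each tumor. Figures were drawn with matplotlib 3.10.9.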

Additional observations from a re-analysis of the deposited data

Results flagged for a closer look

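In 9 of the 69 groups of 5 values examined, 1 value stood well away from the rest. By chance about 3.45 would, if the groups were independent and normally distributed. They are not independent, since levels and changes of the same probe sets share arrays, so nothing is read from the excess. The basal Kdr level of 29I1 was 8.63, against 7.33 to 7.63 in the other basal samples. The final Flt1 level of 09I1 was 5.14 on 1369087_at, against 6.00 to 6.31, and 5.01 on 1370492_a_at, against 6.65 to 7.15. The basal Flt1 level of 43D1 was 5.57 on 1369087_at, against 6.21 to 6.47. The Vegfb change of 09I1 was 0.96, against -0.37 to -0.12. Among the list medians, the change of endothelium was -0.67 in 29I1, against 0.13 to 0.44 in the other tumors. It was -0.52 for VEGF-C processing in 09I1, against 0.04 to 0.21, and -0.85 for oxygen sensing in 09I1, against 0.00 to 0.28. For skeletal muscle it was 4.65 in 11D2, against 0.01 to 0.59. The final array of 09I1 differed from all others in its controls, and its part in the values of that tumor was not tested.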

How the results depend on the processing

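No probe set of the 9 tested genes passed the threshold under any of 14 alternatives, the fits without a replicate block (0 passed), with a random replicate block (0 passed) and without each tumor included. The number with an unadjusted p under 0.05 was 0 to 3 in limma, 3 without 43D1, and 0 by the paired t-test. The Vegfa change kept its sign throughout, from -0.91 (without 43D1) to -0.48 (without 12I1), with adjusted p from 0.357 to 0.999, as did Ccbe1, from -1.26 to -0.96. Of 148 comparisons of a member's change with an alternative, 8 changed sign. A member's mean change is the same whatever the block, filter, variance prior or test. The comparisons with those alternatives could therefore not change sign. Nor could averaging where a gene had 1 tested probe set. Vegfb was at -0.23 with array weights and ran from -0.24 (without 09I1) to 0.095 with a tumor left out. With a tumor left out, Nrp2, which was at 0.078 with array weights, ran from -0.50 to 0.19 (without 29I1). In the same fits Flt1 ran from -0.77 to 0.16, being positive without 09I1 and without 12I1 (0.05). Pgf, at -0.51 with array weights, ran from -0.39 to 0.14, being positive without 11D2 and without 12I1 (0.10). List medians moved by less than 1 SD between tumors in 267 of 270 comparisons. The others were VEGF receptor signalling, at -0.019 with array weights and -0.014 without 09I1, and red blood cells, at -2.69 with the dimmest 50% left out, where 2 genes remained. Changing the block, the variance prior or the test cannot move a list median. The SD is also wide for some lists, so 267 does not mean that they were stable. The macrophage median of -0.14 ran from -0.42 to 0.23, and was -0.045 without 09I1. The fibroblast median of 0.06 ran from -0.25 to 0.56. For skeletal muscle, at 0.92, the range was 0.16 to 2.05. The hypoxia list ran from -0.20 to -0.043 (without 12I1).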

Other observations

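Skeletal muscle markers were high in the final sample of 11D2, where all 9 tested genes were higher than in its basal sample, with a median change of 4.65. In that tumor Vegfb, which muscle expresses, had a change of -0.37, and Vegfa one of -0.57. Adipocyte markers were higher in 11D2 as well, with a median of 1.57 over 8 tested genes.

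Of 11 tested fibroblast genes, 6 were higher and 5 lower on average, with a median of 0.06. Col1a1, a collagen chain, had a change of -0.77. Dpt, a dermatopontin gene of fibroblasts, had a mean change of 2.32, higher in 4 of 5 tumors and at -0.50 in 29I1, and of 1.93 without 09I1. Pdgfra, another fibroblast marker, had one of 0.89, with -0.53 in 29I1. Mcam, an adhesion molecule of vessel walls, had one of -0.83, with -2.47 in 09I1 and -1.39 in 11D2, and -0.42 without 09I1. Neither these 4 genes nor any other list member passed the threshold.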
